A study of Homo sapiens with 9 samples.

Results

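FAIRE-seq peaks were paired between the list labelled SW DMSO and the list labelled NS rottlerin, and the rank of every shared peak was compared between them. FAIRE (formaldehyde-assisted isolation of regulatory elements) enriches DNA that is not held by nucleosomes, so a peak marks accessible chromatin. Peaks on the autosomes, X and Y that overlapped by at least 1 bp were paired, each with its best-overlapping partner. This gave 14364 pairs, out of 40703 regions when all 4 deposited lists are merged. The pairs took in 71.3% (95% Wilson interval 70.7–72.0) of the 20132 SW DMSO peaks and 60.3% (59.6–60.9) of the 23835 NS rottlerin peaks. The intervals given throughout cover counting error alone.

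The study used Jurkat cells, a human CD4+ T cell leukaemia line (clone E6-1), as a model of transcriptional memory. The series has 9 samples, of which 4 have peak lists and 5 were not analysed here. Per the labels, SW (stimulus withdrawal) DMSO cells received the vehicle DMSO, were stimulated with PMA and ionomycin for 4 h, then washed and cultured for 1 day without the stimulus (the study's methods give a shorter stimulation). NS (non-stimulated) rottlerin cells received 15 μM rottlerin for 1 h and no PMA or ionomycin. The 2 samples therefore differ in both drug and stimulation, and the effects of the drug and of the stimulus cannot be told apart between them. All lists were called against the same total input library, made from equal parts of unstimulated and stimulated cells. Each list holds 1 library, so no difference can be set against a spread between replicates, no p-value is given, and read depth is unknown.

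The labels may not match the cell state. The methods describe peak calling on the DMSO samples of 4 cell states only, whereas the labels give the lists to NS and SW cells after DMSO and after rottlerin. Merging all peaks of the 4 deposited lists, on all chromosomes, gave 40731 regions, which equals the number of regions in the DMSO peak set of the methods. SW DMSO and NS rottlerin below are therefore names of lists, and a higher rank in either is not assigned to the drug or to the earlier stimulus.

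PMA activates protein kinase C and ionomycin raises intracellular calcium, and together they replace the signals that follow engagement of the T cell receptor. The first leads to AP-1 (FOS and JUN dimers) and NFκB, and the second to calcineurin and NFAT. Rottlerin is used as an inhibitor of protein kinase C, in particular of isoforms that need no calcium. In resting T-lineage cells, distal accessible sites are commonly held by RUNX, ETS, GATA3 and E proteins, and TAL1 joins them in many T cell leukaemias.

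Among the short sequences counted, the AP-1 site differed most in share between pairs called shifted either way by the rule given below. It was in 10.5% of all pairs shifted to NS rottlerin and in 25.5% of all pairs shifted to SW DMSO. Among the 15 largest shifts to SW DMSO, 8 pairs held it within 150 bp of their centre, against 0 of the 15 largest shifts to NS rottlerin. These 8 are shown because the site lies in each of them, on the plus strand of GRCh37, with the AP-1 site in capitals.
TRANK1, chr3:36954158-36954218: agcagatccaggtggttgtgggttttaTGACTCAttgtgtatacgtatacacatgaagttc
CBFA2T3, chr16:89092689-89092749: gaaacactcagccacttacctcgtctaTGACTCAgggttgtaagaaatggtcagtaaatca
LRIG3, chr12:59271042-59271102: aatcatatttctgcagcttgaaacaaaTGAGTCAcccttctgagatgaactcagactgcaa
TNS3, chr7:47401545-47401605: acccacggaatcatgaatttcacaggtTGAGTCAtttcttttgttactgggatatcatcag
LHX1, chr17:35278962-35279022: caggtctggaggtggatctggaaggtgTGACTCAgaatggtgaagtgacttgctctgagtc
PPTC7, chr12:110969815-110969875: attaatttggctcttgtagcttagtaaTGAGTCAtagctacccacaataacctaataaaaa
ARID3B, chr15:74838608-74838668: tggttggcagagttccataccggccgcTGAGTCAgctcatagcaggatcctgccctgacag
ST3GAL6, chr3:98449354-98449414: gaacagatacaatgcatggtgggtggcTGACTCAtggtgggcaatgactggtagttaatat

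Among the 15 largest shifts to NS rottlerin, 13 held a GATA word and 11 a RUNX word. Of the 15 largest shifts to SW DMSO, 4 held a GATA word and 8 a RUNX word. In these small sets the GATA counts were further apart than the AP-1 counts. Over all shifted pairs RUNX went the other way, at 40.7% toward NS rottlerin and 47.9% toward SW DMSO, against 37.9% of all pairs. Over 1 kb from any transcription start site (TSS) the shares were 50.2% and 58.1%, against 53.2% of all pairs. Within 1 kb they were 26.1% and 30.3%, against 24.5%. RUNX words were therefore not more frequent in pairs shifted to NS rottlerin than in those shifted to SW DMSO. The stretches below show, for 6 of the 15 in which both words occur, the GATA and RUNX words that lie nearest to each other, both in capitals. In TNK2, CEP295 and RORA the words stand close together, and in CD44, CD226 and GPC5 they are farther apart.
CD44, chr11:35144003-35144161: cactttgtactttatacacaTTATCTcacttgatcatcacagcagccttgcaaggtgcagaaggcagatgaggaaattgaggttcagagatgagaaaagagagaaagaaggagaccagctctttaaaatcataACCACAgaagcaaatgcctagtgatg
TNK2, chr3:195583525-195583588: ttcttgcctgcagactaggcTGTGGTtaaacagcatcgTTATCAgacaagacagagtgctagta
CEP295, chr11:93451576-93451631: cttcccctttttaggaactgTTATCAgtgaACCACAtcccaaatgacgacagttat
CD226, chr18:67647879-67648070: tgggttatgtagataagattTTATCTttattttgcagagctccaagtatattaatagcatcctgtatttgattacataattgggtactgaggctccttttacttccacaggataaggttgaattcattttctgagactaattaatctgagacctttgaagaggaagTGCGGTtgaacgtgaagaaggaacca
RORA, chr15:60942222-60942277: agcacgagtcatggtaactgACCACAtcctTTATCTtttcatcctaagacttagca
GPC5, chr13:92378019-92378244: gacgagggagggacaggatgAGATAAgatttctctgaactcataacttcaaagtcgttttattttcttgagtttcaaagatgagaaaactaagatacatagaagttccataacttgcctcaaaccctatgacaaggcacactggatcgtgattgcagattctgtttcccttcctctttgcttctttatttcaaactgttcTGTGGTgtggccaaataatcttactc

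Ranks were compared in place of the fold enrichments themselves. Column 7 of each list is the fold enrichment over total input, and each peak was given its percentile within its own list, 100 being the highest. The shift of a pair is its percentile in NS rottlerin minus its percentile in SW DMSO. Median fold enrichment was nearly the same in both lists, at 4.03 for SW DMSO and 4.08 for NS rottlerin. Paired peaks were stronger than unpaired ones, with medians of 4.22 against 3.67 in SW DMSO and 4.43 against 3.70 in NS rottlerin.

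The ranks of shared peaks were only partly alike. Spearman's rho between the percentiles of the 14364 pairs was 0.66, a description across pairs that share 1 input library and are not independent replicates. The median shift was 1.92 points, the median absolute shift 12.8 points, and 6016 pairs (41.9%) lay within 10 points. A pair was called shifted at 25 points or more. By this rule 2324 pairs (16.2%) ranked higher in NS rottlerin and 1462 pairs (10.2%) ranked higher in SW DMSO. The last pair called and the first not called stood at 25.01 and 24.96 points toward NS rottlerin, and at -25.001 and -24.99 points toward SW DMSO. Shifts of 50 points or more numbered 523 and 302, and of 75 points or more 49 and 26.

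The excess of shifts to NS rottlerin depended on the scale. NS rottlerin is the longer list, and a smaller share of it was paired, with the paired peaks at a median percentile of 62.4 against 58.0 in SW DMSO. When ranks were taken over the paired peaks only, 1891 pairs shifted to NS rottlerin and 1827 to SW DMSO, a share of 50.9% against 61.4% by list percentile. With the same number of peaks kept in each list the share was 46.2%, with 1707 and 1988 pairs. No direction is therefore read from the totals, and the pairs called each way are compared below by where they lie and what they hold.

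**Figure D1:**
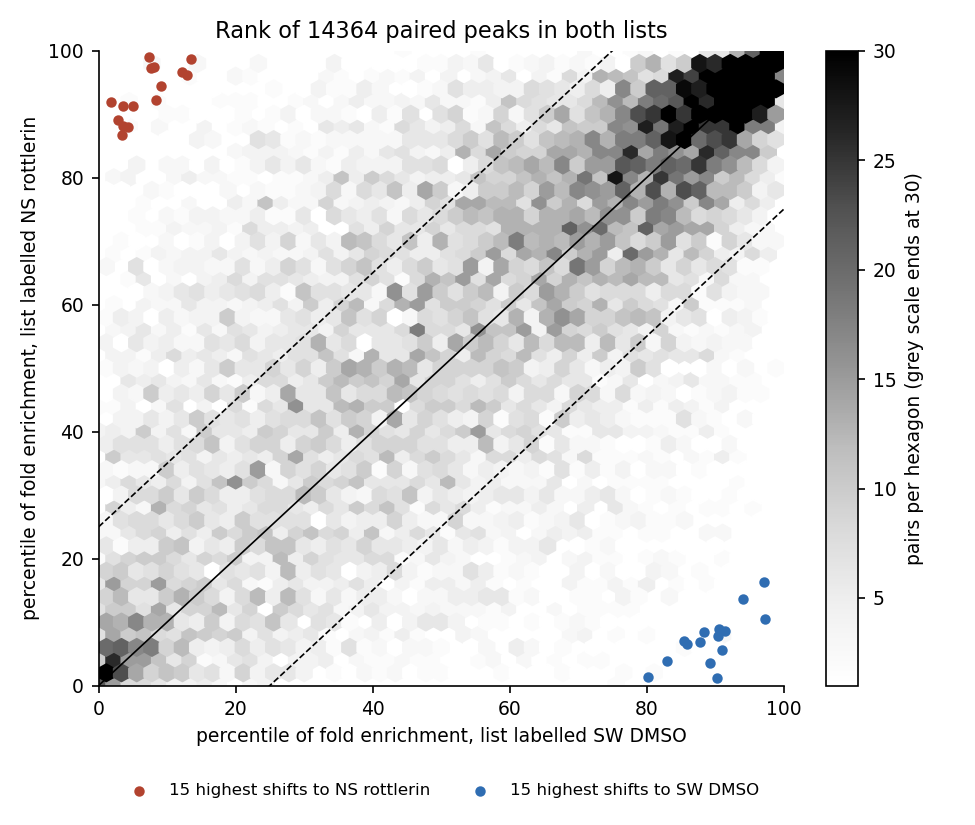
Percentile of fold enrichment of the 14364 paired peaks in the list labelled SW DMSO (x axis) and in the list labelled NS rottlerin (y axis), with the number of pairs per hexagon in grey, the line of equal rank and dashed lines at 25 points. Pairs crowd in the upper right corner, where 1203 are in the highest 10% of both lists, and the 15 largest shifts each way (red, blue) lie in the other corners.

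Pairs near either end of the scale shifted least. The highest 10% of both lists held 1203 pairs in common. Among pairs with a mean percentile of 80 to 100 the median absolute shift was 4.99 points, and 1.26% and 0.932% were called toward NS rottlerin and SW DMSO. In the middle of the scale, at 40 to 60, the median absolute shift was 22.6 points, and 28.1% and 17.5% were called. At 0 to 20 the median absolute shift was 7.99 points, and 4.10% and 2.26% were called. Percentiles end at 0 and 100, which limits the shift a pair can show near either end. These classes therefore cannot show whether strong peaks are steadier than others. Of the 2934 pairs in the highest 10% of at least 1 list, 333 were called toward NS rottlerin and 207 toward SW DMSO.

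Peak width moved with rank. The NS rottlerin peak was the wider in 73.9% of the pairs shifted to NS rottlerin, in 30.1% of those shifted to SW DMSO and in 55.0% of all pairs. In the first group the median width was 245.5 bp in SW DMSO and 299 bp in NS rottlerin, and in the second it was 294 and 248 bp. The part of width in the rank shift was not tested.

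Shifted pairs lay away from promoters more often than all pairs did. Within 1 kb of a TSS lay 39.6% of pairs shifted to NS rottlerin, 36.8% of those shifted to SW DMSO and 53.3% of all pairs. A promoter was the 1 kb before a TSS. Of 2938 pairs at promoters, 10.8% were called toward NS rottlerin and 5.41% toward SW DMSO, both below the shares of all pairs. In introns (6607 pairs) the values were 18.9% and 12.4%, and in intergenic sequence (1356 pairs) 20.7% and 13.0%. Introns and intergenic sequence together held 65.7% (63.8–67.7) of the pairs shifted to NS rottlerin, 68.3% (65.8–70.6) of those shifted to SW DMSO and 55.4% (54.6–56.2) of all pairs. The groups shifted either way therefore differed from all pairs in the same direction, and their intervals overlapped each other.

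The same held for distance. The median distance to the nearest TSS of any gene was 487.5 bp for all pairs, 2688 bp for pairs shifted to NS rottlerin, 3703.5 bp for those shifted to SW DMSO and 168 bp for pairs within 10 points. The median GC content of the central 300 bp was 53.7% for all pairs, 48.0% and 49.3% for those shifted to NS rottlerin and SW DMSO, and 57.3% for pairs within 10 points. Pairs within 10 points also held more CG dinucleotides, with a median of 17 in the 300 bp against 5 in both shifted groups. Pairs over 1 kb from any TSS had median percentiles of 53.2 in SW DMSO and 58.2 in NS rottlerin, against 58.0 and 62.4 for all pairs. Pairs near a TSS thus ranked higher, where the end of the scale limits the shift. The part of this limit in the contrasts by location, distance and sequence was not tested.

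**Figure D2:**
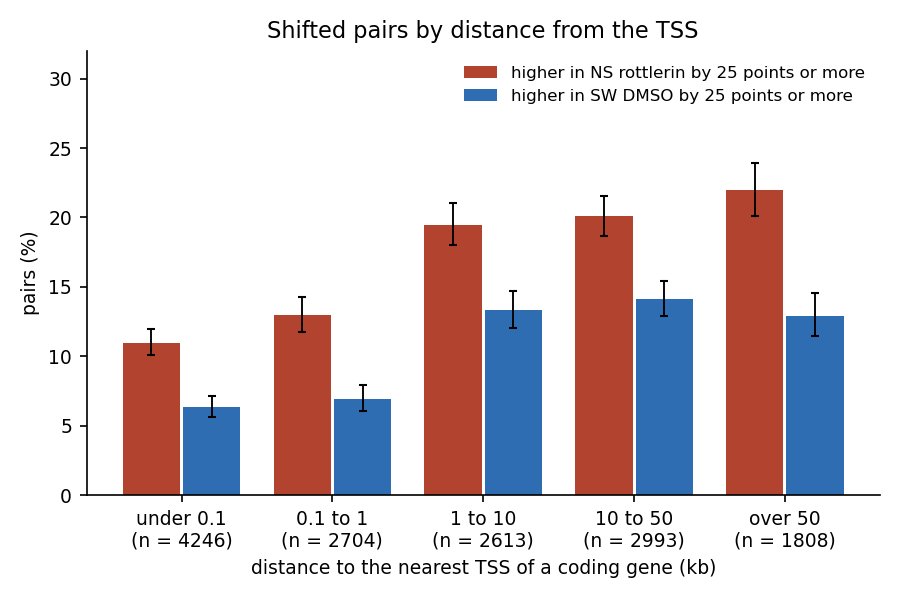
Percentage of pairs called toward NS rottlerin (red) and toward SW DMSO (blue) by distance of the pair's mid-point to the nearest TSS of a coding gene, with 95% Wilson intervals as error bars and the number of pairs under each bin. Both bars are lowest under 0.1 kb, at 11.0% and 6.36%, and stand at 20.1% and 14.1% from 10 to 50 kb.

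The largest shift to NS rottlerin lay 16.4 kb upstream of CD44, the hyaluronan receptor that is abundant on activated and memory T cells. This intergenic peak, at chr11:35143942-35144107 in SW DMSO, had a fold enrichment of 3.03 there and 7.65 in NS rottlerin, and its percentile was 7.39 against 99.0. Of the 8 pairs nearest to CD44, this one included, 4 were called toward NS rottlerin and 0 toward SW DMSO. CD44 was named for its shift, so this count supports nothing against the 16.2% and 10.2% of all pairs. A pair 18.9 kb upstream of CD226, an activating receptor of T and NK cells, went from 3.05 to 6.89 in fold enrichment and from the 8.15 to the 97.4 percentile. An intronic RORA pair had fold enrichments of 3.08 and 6.30. RORA encodes a nuclear receptor of helper T cell subsets.

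A pair 1.76 kb upstream of CSK, the kinase that holds LCK and other SRC-family kinases inactive, had fold enrichments of 2.93 in SW DMSO and 5.89 in NS rottlerin. A pair in an intron of the non-coding LINC02458, 115.0 kb from DUSP6, the nearest coding gene and an ERK phosphatase, had 2.86 and 5.89. A pair in the non-coding LINC01983 had 2.74 and 5.95, and its nearest coding gene, 13.0 kb away, was TNK2, for a non-receptor tyrosine kinase. In these last 2 pairs the SW DMSO peak had a q-value above 0.05. The intronic pair at LRP5, a WNT co-receptor, held no GATA word and had 2.89 and 5.60.

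The remaining pairs of the 15 were named by CEP295 and MTFR1, for a centriole and a mitochondrial protein, by MTSS1 and DIAPH3, for regulators of the actin cytoskeleton, and by EVPL, GPC5 and VANGL1. Their fold enrichments were between 2.74 and 3.21 in SW DMSO and between 5.49 and 7.65 in NS rottlerin, as for all 15. The MTSS1 pair lay 66 bp before a TSS of that gene, and the VANGL1 pair was 140.4 kb from any coding TSS. In all, 8 of the 15 were intronic, 4 intergenic and 3 within 1 kb of a coding TSS. The NS rottlerin peak was the wider in 13 of them.

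The largest shift to SW DMSO was an intronic pair of CLEC16A, which encodes a regulator of endolysosomal traffic and mitophagy. The peak, at chr16:11188073-11189141 in SW DMSO, had a fold enrichment of 5.65 there and 2.68 in NS rottlerin, and percentiles of 90.3 and 1.24. It held no AP-1 word. The second, in an intron of TRANK1 and 4.14 kb upstream of one of its TSSs, had 6.67 against 3.13 and percentiles of 97.3 and 10.5, with the AP-1 site printed above at its centre. The third lay 49.1 kb from CBFA2T3, a co-repressor of blood cell transcription factors, with 5.56 against 2.86.

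A pair 11.3 kb upstream of ALCAM, the ligand of CD6 on T cells, had fold enrichments of 6.08 in SW DMSO and 3.22 in NS rottlerin. An intronic pair at ATP2C1, the calcium and manganese pump of the Golgi, had 5.11 and 2.88. The intronic pair of TNS3, a focal adhesion protein, had 6.64 and 3.29, and that of RIN2, an exchange factor for RAB5, had 5.76 and 3.07. All 3 pairs nearest to RIN2 were called toward SW DMSO, as were 10.2% of all pairs. RIN2 too was named for its shift, so this count supports nothing. At LRIG3 the pair was 140 bp from a TSS and held an AP-1 site, with 5.67 and 3.04.

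The rest were at ARID3B, a DNA-binding protein (4.97 and 2.68), at PPTC7, in 3′UTR sequence of RAD9B (5.48 and 3.06), at ST3GAL6, a sialyltransferase (5.27 and 3.01), and at ZNF775, APBB2, LHX1 and ZHX2. Introns held 12 of the 15, and 1 was within 1 kb of a coding TSS. SW DMSO had the wider peak in 11. Among pairs in the highest 10% of a list, 2 further loci entered. One lay in a non-coding gene 297.8 kb from PMFBP1 and had the highest SW DMSO value of any pair named by this rule, 8.59 against 3.44, and percentiles of 99.9 and 22.4. The other was in an intron of NRROS, 3.54 kb from a TSS of PIGX, with 5.70 against 3.22.

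The other lists place these loci differently. Of the 15 pairs shifted to NS rottlerin, 13 had a peak in NS DMSO, at percentiles of 20.7 to 93.3 with a median of 45.1, and 14 had one in SW rottlerin, with a median of 82.1. Of the 15 shifted to SW DMSO, 6 had a peak in NS DMSO and all 15 had one in SW rottlerin, with a median of 81.6. CBFA2T3, RIN2, APBB2, TNS3, LHX1, ALCAM, PPTC7, ATP2C1 and ST3GAL6 had no NS DMSO peak, so these regions were not called in that library, whose depth is unknown. Both sets thus ranked high in the longest list, SW rottlerin, with 30409 peaks. They differed in whether the shortest list, NS DMSO with 18977 peaks, had a peak at all.

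**Figure D3:**
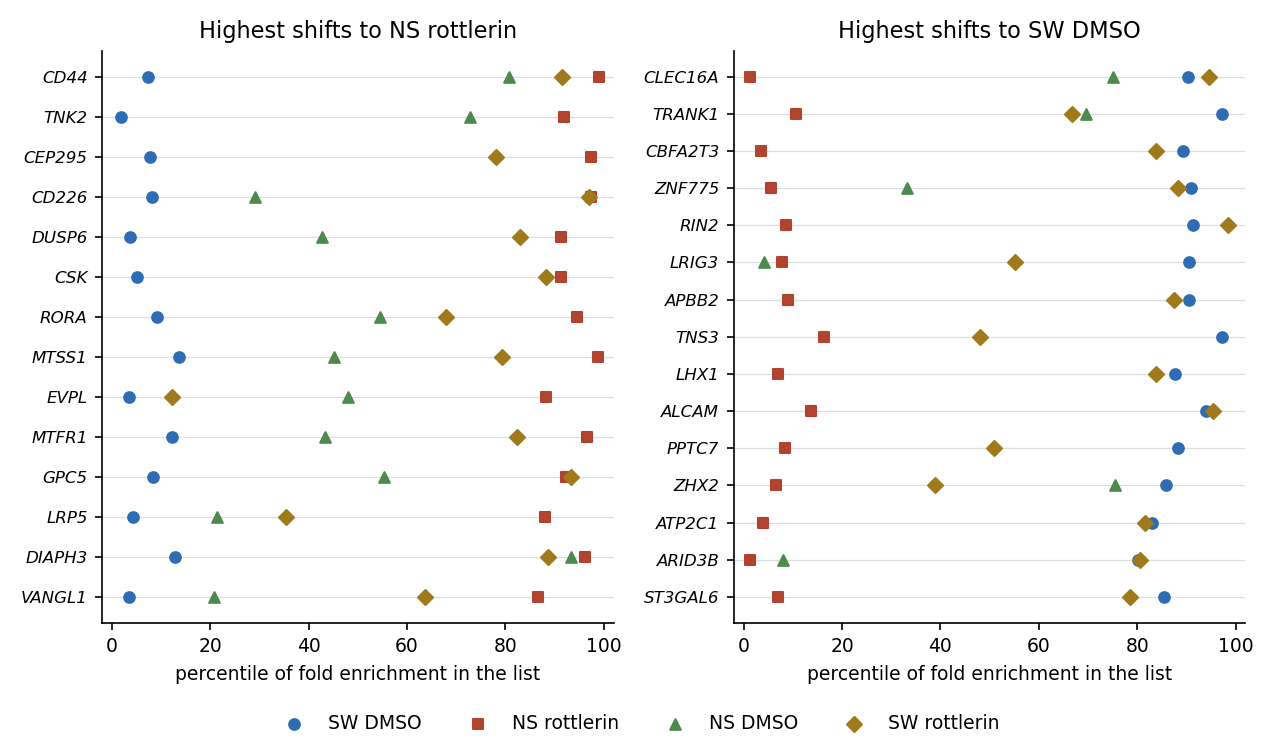
Percentile of fold enrichment in each of the 4 lists, by label, for 14 of the 15 pairs with the largest shift to NS rottlerin (left) and all 15 with the largest shift to SW DMSO (right), named by the nearest coding gene; a missing marker means no peak in that list. Green triangles (NS DMSO) stand in 12 rows on the left and 6 on the right, while brown diamonds (SW rottlerin) stand in 13 and 15 rows.

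Over all shifted pairs the difference was smaller. A peak in NS DMSO was present at 75.6% of the 2324 pairs shifted to NS rottlerin, at 64.4% of the 1462 shifted to SW DMSO and at 77.8% of all pairs. Where present, its median percentile was 52.5, 52.2 and 63.6. SW rottlerin had a peak at 96.0%, 95.4% and 95.5%, with medians of 64.6, 67.3 and 71.6.

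Short motif words were then counted in the central 300 bp of every pair, on both strands. For AP-1 the word was TGAGTCA, whose reverse complement reads TGACTCA. For GATA the forms counted were AGATAA and also AGATAG, and with T in first place TGATAA and also TGATAG. For RUNX the word was TGTGGT, with TGCGGT as its other form. For ETS it was CCGGAAG, with CAGGAAG as its other form. For NFAT it was TGGAAA, and for basic helix-loop-helix (bHLH) factors CACCTG and, counted separately, CAGCTG. None of these words contains another. A word is a match of letters and not a site known to be bound. AP-1 words were present in 12.9% (12.4–13.5) of all 14364 pairs, in 10.5% (9.32–11.8) of those shifted to NS rottlerin and in 25.5% (23.3–27.8) of those shifted to SW DMSO. GATA words were more frequent in pairs shifted to NS rottlerin than in those shifted to SW DMSO, with shares in the same order of 32.1% (31.3–32.8), 43.4% (41.4–45.4) and 34.3% (31.9–36.7).

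The shares by size of shift in this paragraph were not split by distance from a TSS or by GC content. Counted in this way, AP-1 followed the size of the shift on one side only. It was held by 38.7% (33.4–44.3) of the 302 pairs shifted by 50 points or more to SW DMSO, by 22.1% of those shifted by 25 to 50 points and by 16.3% of those shifted by 10 to 25. Within 10 points the share was 10.7%, and in the 3 classes toward NS rottlerin it was 10.3%, 10.4% and 10.7%. GATA words rose toward both ends, from 28.1% (26.9–29.2) within 10 points to 55.1% (50.8–59.3) at 50 points or more toward NS rottlerin and to 34.8% (29.6–40.3) toward SW DMSO. RUNX words also rose both ways, from 34.2% within 10 points to 57.3% at the SW DMSO end and 46.7% at the NS rottlerin end. ETS words went from 19.9% at the SW DMSO end to 34.8% at the NS rottlerin end.

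**Figure D4:**
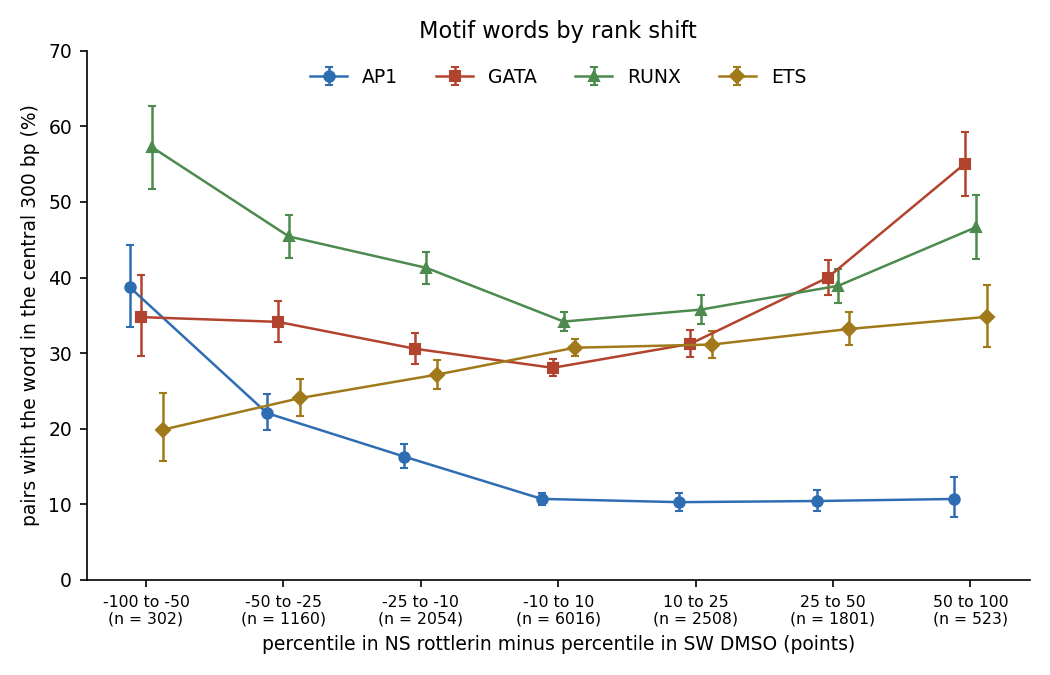
Percentage of pairs with an AP1, GATA, RUNX or ETS word in the central 300 bp, by class of rank shift, from pairs higher in SW DMSO (left) to pairs higher in NS rottlerin (right), with 95% Wilson intervals and the number of pairs per class. AP1 falls from 38.7% to 10.7% at the middle class and stays there, whereas GATA ends at 55.1% on the right.

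The other words counted were these. NFAT words were in 21.0% of all pairs, 19.2% of those shifted to NS rottlerin and 25.6% of those shifted to SW DMSO. CACCTG was in 19.0%, 16.7% and 24.6%, and CAGCTG in 16.8%, 15.7% and 18.9%. EGR words (GTGGGCG), which occur in GC-rich promoters, were in 10.2%, 6.97% and 7.59%, and NFκB sites in 8.68%, 6.20% and 9.44%. TCF words (ATCAAAG) were in 5.26%, 6.97% and 6.98%, and CTCF sites in 1.80%, 1.38% and 1.57%.

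Because shifted pairs lay farther from TSSs than all pairs and were poorer in GC, the words were counted again within classes. Over 1 kb from any TSS, AP-1 was in 21.7% of 6713 pairs, in 14.9% (13.1–16.8) of those shifted to NS rottlerin and in 33.9% (30.9–37.0) of those shifted to SW DMSO. Within 1 kb it was in 5.24%, 3.80% and 11.2%. Pairs were also split into 3 GC classes of nearly equal size. In the lowest class of GC content it was in 14.7% against 31.1% of pairs shifted to NS rottlerin and SW DMSO, in the middle class in 11.5% against 27.3%, and in the highest in 1.81% against 10.4%. The AP-1 difference was therefore present in every class. From the lowest to the highest GC class, AP-1 was in 20.9%, 14.2% and 3.39% of all pairs. Pairs shifted to NS rottlerin thus held AP-1 less often than all pairs in every class of distance or GC. For GATA the values were 65.5% against 49.7%, 39.3% against 31.8%, and 7.25% against 7.27%, so the shares were nearly equal in the highest class. By distance, GATA was in 58.7% (56.1–61.2) against 41.6% (38.4–44.8) over 1 kb from any TSS. Within 1 kb the intervals overlapped, at 17.5–22.7% against 18.5–25.4%. Of all pairs, 48.9% held GATA over 1 kb from any TSS and 56.9% in the lowest GC class. Pairs shifted to SW DMSO held it less often than that in both. Within 1 kb and in the middle GC class, 17.3% and 30.6% of all pairs held it, below the shares toward SW DMSO. The rise of GATA toward SW DMSO was therefore not seen in every class.

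The combination of both words ordered the pairs further. The 1044 pairs with AP-1 and no GATA word had a median shift of -5.82 points, and 10.7% and 23.9% were called toward NS rottlerin and SW DMSO. The 3797 pairs with GATA and no AP-1 word had a median of 4.65 points, and 23.1% and 9.93% were called. The 811 pairs with both stood between them, at a median of 0.36 points, 16.3% and 15.3%. The 8712 pairs with neither word had a median of 1.75 points, and 13.8% and 8.17% were called. Pairs with AP-1 also had few peaks in NS DMSO, at 44.3% against 77.8% of all pairs, while 95.4% had one in SW rottlerin.

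Pairs within 50 kb of a TSS of genes in 12 lists were examined next. A pair counts for every listed gene within that distance, also where another gene is nearer. Each list is described by its counts, to be read against the 16.2% and 10.2% of all pairs. The lists were chosen with earlier results of these data known, and with few pairs each they are not set apart from other genes by any test.

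Dual-specificity phosphatases, which switch off MAP kinases, had 17 pairs, of which 0 were called toward NS rottlerin and 5 toward SW DMSO, with a median shift of -5.26 points. At DUSP2, a nuclear phosphatase induced by T cell activation, a pair 3.22 kb upstream had fold enrichments of 4.33 in SW DMSO and 3.16 in NS rottlerin. A second DUSP2 pair, 18.6 kb away, had 6.33 and 3.89 and was among the strongest 5% of SW DMSO peaks, at the 95.7 percentile. At DUSP5, an inducible ERK phosphatase, pairs at 33.6 kb and 1.39 kb had 4.99 against 3.49 and 4.00 against 2.85. DUSP16 had 4.40 and 3.39. The other 12 pairs lay within 25 points, and the highest shift to NS rottlerin among them was 20.2 points, at DUSP10.

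NFκB subunits and their feedback regulators had 35 pairs, with 3 called toward NS rottlerin and 8 toward SW DMSO, and a median shift of -0.14 points. Of the 8, 4 lay within 50 kb of genes of IκB proteins, which hold NFκB inactive or modify it. NFKBIA, which encodes IκBα, had a pair 0.243 kb from a TSS with fold enrichments of 4.03 and 2.76, and a pair 12.3 kb away with 4.52 and 3.23. NFKBIE, which encodes IκBε, had 4.79 and 3.45 in an exon 0.095 kb from a TSS, and this pair held AP-1, ETS, RUNX and NFκB words. A pair 12.2 kb from a TSS of BCL3, a nuclear IκB protein, had 4.36 and 2.97, and its nearest coding gene was CBLC. TRAF1, an adaptor of TNF receptors, had 3 pairs called toward SW DMSO, at 4.39, 21.6 and 45.7 kb. Those at 21.6 and 45.7 kb lay in PHF19. RELB had 1 pair called toward SW DMSO, 46.1 kb away and 0.062 kb from a TSS of CLPTM1. NFKB1, RELA and NFKBIB each had 1 pair called toward NS rottlerin, at 18.5, 49.2 and 47.7 kb. These lay in the 3′UTR of MANBA, 0.023 kb from a TSS of KAT5 and in an intron of HNRNPL.

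Inducible cytokines, ligands and surface molecules had 41 pairs, 9 called toward NS rottlerin and 9 toward SW DMSO, equal counts each way, where 16.2% and 10.2% of all pairs were called. A pair 39.8 kb from IFNG, which encodes interferon-γ, had fold enrichments of 4.79 in SW DMSO and 2.73 in NS rottlerin, and percentiles of 76.0 and 1.78. IL2RA, the high-affinity subunit of the IL-2 receptor, had pairs with 4.87 against 3.17 and 6.16 against 4.14, both in introns and neither with a peak in NS DMSO. TNFRSF9, the co-stimulatory receptor 4-1BB, had 4.80 against 3.26. The AP-1 sites of 3 of these pairs and of the DUSP2 and NFKBIE pairs are shown, in capitals on the plus strand of GRCh37, as examples of pairs shifted to SW DMSO that hold the word. Of the 6 pairs of the cytokine list with an AP-1 word, 3 were called toward SW DMSO, a CTLA4 pair was called toward NS rottlerin, with 3.52 in SW DMSO and 4.14 in NS rottlerin, and pairs near FASLG and TNFSF10 were not called.
IFNG, chr12:68513616-68513676: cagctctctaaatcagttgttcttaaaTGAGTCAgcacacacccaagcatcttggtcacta
IL2RA, chr10:6094742-6094802: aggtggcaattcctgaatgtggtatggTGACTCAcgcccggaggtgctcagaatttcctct
TNFRSF9, chr1:8009225-8009285: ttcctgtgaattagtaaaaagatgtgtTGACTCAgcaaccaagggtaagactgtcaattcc
DUSP2, chr2:96814365-96814425: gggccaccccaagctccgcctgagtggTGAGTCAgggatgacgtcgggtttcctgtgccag
NFKBIE, chr6:44233450-44233510: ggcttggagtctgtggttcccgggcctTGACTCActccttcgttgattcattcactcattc

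In the same list other loci ranked higher in NS rottlerin. A pair 46.7 kb from IL2, the T cell growth factor, had fold enrichments of 4.16 in SW DMSO and 7.33 in NS rottlerin, and stood at the 98.5 percentile of NS rottlerin. An intronic pair at TNFSF10, which encodes the death ligand TRAIL, had 4.07 and 6.94. FASLG, the FAS ligand, had pairs called both ways, with 4.76 against 3.26 at 11.7 kb and 3.92 against 5.16 at 19.9 kb. The pairs near TNF, LTA and LTB, 3 neighbouring genes that share their pairs, also went both ways, with 5.34 against 4.10 and 4.01 against 5.70. ICOS, a co-stimulatory receptor, had 5.45 against 4.15 at its promoter.

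AP-1, EGR and NR4A immediate-early genes had 54 pairs, 10 called each way. Toward SW DMSO, JUND had a pair 23.1 kb away with an AP-1 word and fold enrichments of 4.94 and 3.24, NR4A1 had one 0.063 kb from a TSS with 4.54 and 3.36, and EGR4 had one at its promoter with 5.53 and 3.96. NR4A1 encodes an orphan nuclear receptor induced by antigen receptor signals. FOSB had 2 pairs called each way. Toward NS rottlerin, a pair 14.4 kb from FOSB, in the 3′UTR of RTN2, had 3.49 against 4.81. Toward SW DMSO, the pair 0.306 kb from a TSS of FOSB had 4.42 against 3.83. FOSL2 had 3.39 against 4.55 toward NS rottlerin. NFAT factors and calcium feedback genes had 17 pairs, 3 each way, with a median of -9.86 points. The pair at RCAN1, a calcineurin inhibitor, had 3.93 in SW DMSO and 3.11 in NS rottlerin at its promoter. NFATC3 had 2 of 3 pairs called toward NS rottlerin, and the closest, at 0.178 kb from a TSS, had 3.13 and 4.15. CABIN1 had 1 of 3 pairs called toward NS rottlerin, with 3.97 and 4.81.

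T-lineage transcription factors had 100 pairs, the most of any list, and 23 were called toward NS rottlerin against 13 toward SW DMSO, with a median shift of 4.84 points. TAL1, the basic helix-loop-helix factor that is expressed in Jurkat cells, had a pair 7.13 kb upstream with fold enrichments of 3.22 in SW DMSO and 5.46 in NS rottlerin. The RUNX2 and TCF12 pairs, in introns, had 3.20 against 5.07 and 3.22 against 5.07, and like TAL1 both held GATA and RUNX words. TCF12 encodes HEB, an E protein. ID3, an inhibitor of E proteins, had 3 pairs called toward NS rottlerin and FLI1, an ETS factor, had 2. The closest ID3 pair, at 4.12 kb, had 2.89 and 4.45.

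Single factors of this list went both ways. BACH2, a repressor that limits effector differentiation and competes with AP-1, had 11 pairs within 50 kb of a TSS, 5 called toward SW DMSO and 1 toward NS rottlerin, the first including 5.44 against 3.68 and 5.36 against 3.78 in introns. On the same basis ETS1 had 3 of 5 pairs called toward NS rottlerin and 1 toward SW DMSO, and GATA3 had 1 and 1 of 3. At ETS1, an intronic pair 7.61 kb from a TSS had 3.71 and 5.69, whereas an intergenic pair 41.2 kb away had 4.05 and 2.51.

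T cell receptor signalling genes had 69 pairs, 11 called each way, with a median of 0.74 points. Toward NS rottlerin, an intronic pair of PLCG1, the phospholipase that yields diacylglycerol and calcium signals, had fold enrichments of 3.20 and 5.49. MALT1, a protease that acts upstream of NFκB, had 3.20 and 5.09 at 13.2 kb, and CD28, the co-stimulatory receptor, had 3.53 and 5.19 at 0.055 kb from a TSS. Toward SW DMSO, an intronic pair of CD247, the ζ chain of the receptor, had 5.63 and 3.47, and a pair 40.0 kb from LAT had 6.29 and 4.17. Protein kinase C genes, most of whose products are targets of PMA, had 33 pairs with 7 and 5 called. PRKCH, for isoform η, had 2.96 and 4.53 at 0.056 kb from a TSS.

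The genes that the study followed as candidates, with its comparison genes, had 65 pairs, of which 9 were called toward NS rottlerin and 13 toward SW DMSO. They were chosen by the study on these samples. MIR21, a microRNA gene, had a pair 3.46 kb away with fold enrichments of 3.23 in SW DMSO and 4.80 in NS rottlerin, and PRDM8 had 3.64 against 5.59 at 40.6 kb. TRIB3 had 4.34 against 3.24. A pair 7.34 kb upstream of TNFSF10 was strong in both lists, at 5.34 and 7.88, and its percentiles of 86.4 and 99.3 differed by 12.9 points. No pair at BCL2A1, BCL6, BIRC3, DUSP10, CREB5, NFATC1 or MIR155HG reached 25 points either way.

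**Figure D5:**
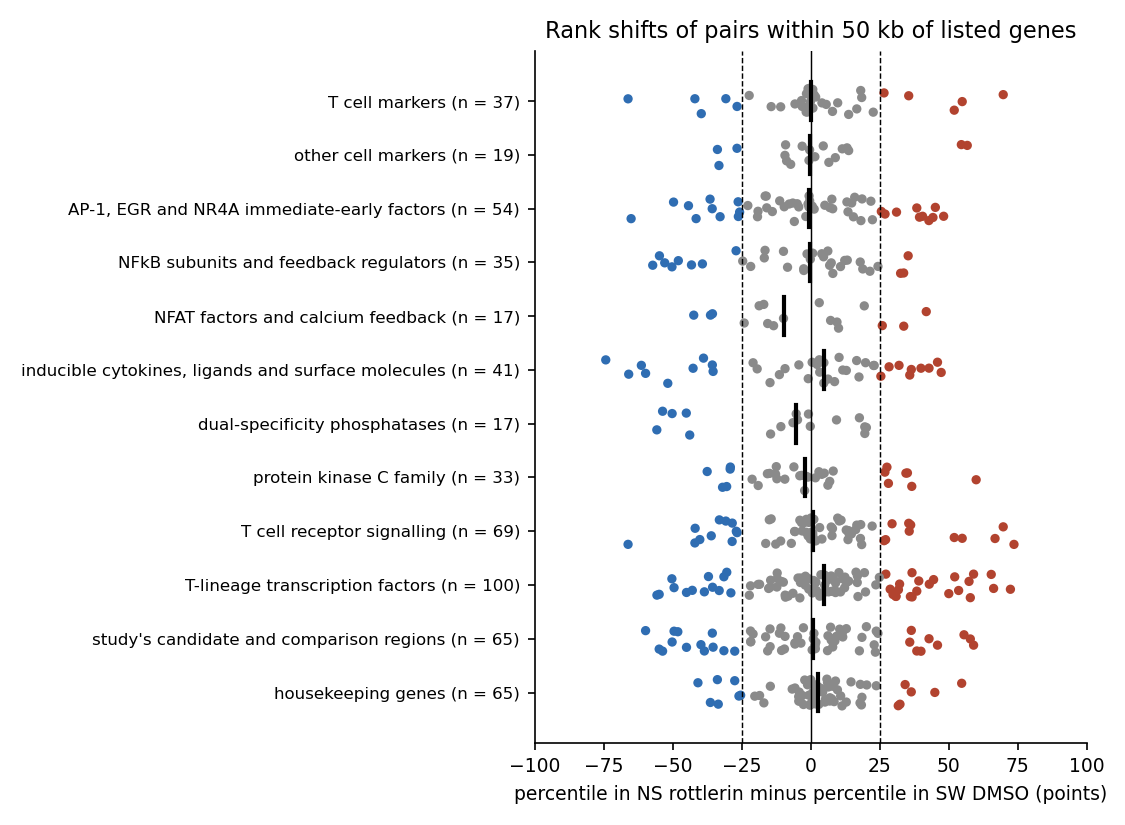
Rank shift of every pair within 50 kb of a TSS of the genes in each of 12 lists, with 1 point a pair (red, 25 points or more toward NS rottlerin; blue, toward SW DMSO; grey, between), a black bar at the median and dashed lines at 25 points. Dual-specificity phosphatases have 5 blue and 0 red points, and T-lineage transcription factors 13 blue and 23 red.

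Housekeeping genes, given for comparison, had 65 pairs, 6 called toward NS rottlerin and 7 toward SW DMSO, with a median of 2.66 points. T cell markers had 37 pairs, 5 called each way. A peak within 1 kb of a TSS was present for 7 of 11 T cell marker genes in SW DMSO and 8 of 11 in NS rottlerin, against 1 of 10 markers of other cells, in both lists. That 1 was COL1A1. Pairs within 50 kb of the other markers numbered 19, 2 called toward NS rottlerin and 3 toward SW DMSO.

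Some genes had several called pairs nearest to them, and these were chosen after their values were seen, so their counts support nothing against the 16.2% and 10.2% of all pairs. Toward NS rottlerin, ETS1 had 6 of 14 and PTPRC 6 of 31, with 2 and 4 called toward SW DMSO. CD83 had 5 of 14, MAN1A1 5 of 7, RIPOR2 5 of 6 and STT3B 5 of 6, with 0 toward SW DMSO. At STT3B, a subunit of the oligosaccharyltransferase, the lowest shift was 11.0 and the highest 76.1 points. Toward SW DMSO, BACH2 had 5 of 14 and LRFN2 4 of 6, each with 1 called toward NS rottlerin. RGS16, SLC7A5 and RIN2 had all of their 3 pairs called toward SW DMSO. SLC7A5, the amino acid transporter that activated T cells need, had shifts from -58.9 to -36.3 points, and RGS16, a regulator of G protein signalling, from -56.9 to -25.3. STIM1, the calcium sensor of the endoplasmic reticulum, had 3 of 7 pairs called toward SW DMSO and 0 toward NS rottlerin.

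The rank agreement was of the size seen between other lists. Spearman's rho was 0.67 for NS DMSO with SW DMSO (12549 pairs), 0.67 for NS DMSO with NS rottlerin (13701), 0.71 for SW DMSO with SW rottlerin (17139) and 0.69 for NS rottlerin with SW rottlerin (18847), against 0.66 here. These comparisons share lists and the input library and are given side by side only. Toward the second list of each, 11.7%, 16.6%, 20.6% and 15.8% of pairs were called.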

How the data were processed

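Per the labels and the study's methods, the authors trimmed FAIRE reads with CutAdapt, used Bowtie2 for mapping to Hg19 and Picard for removal of duplicates, and called broad peaks per sample against total input with MACS2 (versions not given in the sources used here). The deposited lists hold a score, which is the whole part of 10 times the −log10 q-value, a ratio, which is fold enrichment over input, and p and q values as −log10. Peaks above a q-value of 0.05, 163 in SW DMSO and 217 in NS rottlerin, were kept. Depth is unknown from peak lists.

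Each peak was paired with its best-overlapping partner where the choice was mutual, which left 61 of 14425 overlaps unpaired. Percentiles of fold enrichment were taken within each list, with mean ranks for ties. The mid-point of the shared part of a pair was placed by GENCODE release 44 on GRCh37 in the first that applied of 5′UTR, 3′UTR, exon, intron, promoter (to 1 kb before a TSS), upstream (to 10 kb) and intergenic sequence, and was named by the nearest TSS of any transcript of a protein-coding gene. Pairs named were the 15 largest shifts each way, the 10 largest each way among pairs in the highest 10% of a list, and pairs of the gene lists that were called or lay at the study's candidates. Of the 15 largest shifts to NS rottlerin, 1 is not reported here by name. Sequences were read from GRCh37. A peak of another list was the one that best overlapped the pair. The members and lists were chosen with earlier results of these data known. With 1 library a list there was no test. Steps were tested on simulated data. Work was done in Python 3.11.15 with pandas 2.3.3 and numpy 2.4.6 for tables, scipy 1.17.1 for ranks, pysam 0.24.0 and samtools 1.23.1 for sequence, and matplotlib 3.10.9 for plots.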

Additional observations from a re-analysis of the deposited data

How the results depend on the processing

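No paired analysis was possible because each list holds 1 library, and for the same reason no replicate could be left out. Ranking by −log10 p gave a Spearman rho of 0.68 and intron or intergenic shares of 67.7% and 70.7% for pairs shifted to NS rottlerin and SW DMSO. A reciprocal overlap of 50% gave a rho of 0.68. A centred log2 ratio of 0.5 called 540 and 496 pairs. The higher-ranked 50% of each list gave 6815 pairs, 1259 and 956 of them shifted, a rho of 0.54, an AP-1 share of 20.5% for those shifted to SW DMSO, and intron or intergenic shares of 57.0% and 58.5%. The same number of peaks in both lists gave a rho of 0.62, an AP-1 share of 21.2% and an intron or intergenic share of 63.0% for pairs shifted to SW DMSO. A 500 bp window gave AP-1 shares of 13.6% and 28.9%, and placing promoters first gave intron or intergenic shares of 54.4% and 56.6%. The intron or intergenic share of all pairs was not taken under any alternative. These shares therefore cannot show whether shifted pairs still differ from all pairs. The AP-1 share was higher in pairs shifted to SW DMSO under every alternative for which it was recorded. It was not recorded for the centred log2 ratio, for promoters placed first or for pairing each SW DMSO peak with its best partner. The causes of these changes were not tested. The 32 loci named by size of shift kept their direction wherever they still formed a pair. They were chosen for extreme shifts and the alternatives reuse the same peaks, so this could hardly come out otherwise and supports nothing. The higher-ranked 50% of each list left none of them, 50% reciprocal overlap 16, equal list lengths 17 and a q-value of 0.05 or less 30, without the TNK2 and DUSP6 loci.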
